A study of Mus musculus with 2 samples.

Results

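Polycomb and DNA methyltransferase genes were described in mouse bone marrow cells sorted as Lin-c-kit+Sca1+ (LSK), the fraction that lacks antigens of mature blood lineages, carries the receptor Kit and the antigen Sca-1, and holds most stem cells and multipotent progenitors of the blood. The members were 10 genes chosen by name, and every probe set annotated to them was taken. They are Ezh1, Ezh2 and Eed of Polycomb repressive complex 2 (PRC2), Bmi1, Rnf2 and Cbx2 of Polycomb repressive complex 1 (PRC1), the DNA methyltransferase genes Dnmt1, Dnmt3a and Dnmt3b, and Kmt2a. Of these, 9 were measured, by 15 probe sets that each name only that gene, among 8251 genes measured in all. No probe set was annotated to Dnmt3b, and its level was not analysed here. The data are 2 arrays of 1 group, called sample 1 and sample 2. The labels name no treatment, genotype, strain or age, and leave unsaid whether separate animals or sorts were used, so the spread between the samples may be technical. The RNA passed through 2 rounds of amplification, and such products start from the 3' end of a transcript.

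PRC2 places methyl groups on lysine 27 of histone H3 (H3K27) through Ezh2 or its paralog Ezh1, and PRC1 reads this mark through a chromobox protein such as Cbx2 and ubiquitinates histone H2A through Rnf2 with a partner such as Bmi1. Dnmt1 copies DNA methylation onto the new strand at replication, while Dnmt3a and Dnmt3b methylate new sites. Kmt2a (also called Mll) methylates lysine 4 of histone H3 and keeps Hox genes active against Polycomb repression, and each of these systems is known for its part in the self-renewal of blood stem cells.

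The promoter windows of Ezh2, Dnmt1 and Ezh1 are shown. The signals of Ezh2 and Dnmt1 were higher in sample 1, and that of the Ezh2 paralog Ezh1 was higher in sample 2. Direction alone does not single out these genes, since Bmi1 and Eed were also higher in sample 1. The windows of Ezh2 and of the third Dnmt1 start were the only member windows with a match to the E2F motif given below. The sequences are RefSeq's for GRCm38.p6, from 250 bases before the annotated start, 5′ to 3′ on the gene's strand, with the start itself at position 0. Capitals mark matches to the E2F motif, searched on both strands as TTTCCCGC, TTTCGCGC, TTTGCCGC or TTTGGCGC. E2F factors drive genes of DNA replication. The Ezh2 window lies at chr6:47594981-47595280 on the minus strand, the Dnmt1 window (the third of 3 annotated starts) at chr9:20952574-20952873 on the minus strand, and the Ezh1 window at chr11:101226414-101226713 on the minus strand.
Ezh2: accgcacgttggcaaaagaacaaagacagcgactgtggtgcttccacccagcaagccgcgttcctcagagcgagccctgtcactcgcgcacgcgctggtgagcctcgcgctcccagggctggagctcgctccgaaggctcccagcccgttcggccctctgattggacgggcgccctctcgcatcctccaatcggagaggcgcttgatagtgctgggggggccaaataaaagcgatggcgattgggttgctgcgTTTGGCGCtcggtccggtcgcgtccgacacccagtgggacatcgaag
Dnmt1: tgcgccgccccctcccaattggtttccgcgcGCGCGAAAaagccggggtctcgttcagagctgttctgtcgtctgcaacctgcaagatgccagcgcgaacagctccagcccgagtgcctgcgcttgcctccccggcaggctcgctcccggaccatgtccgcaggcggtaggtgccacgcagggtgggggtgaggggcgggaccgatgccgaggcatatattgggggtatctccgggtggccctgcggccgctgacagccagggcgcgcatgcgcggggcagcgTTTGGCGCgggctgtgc
Ezh1: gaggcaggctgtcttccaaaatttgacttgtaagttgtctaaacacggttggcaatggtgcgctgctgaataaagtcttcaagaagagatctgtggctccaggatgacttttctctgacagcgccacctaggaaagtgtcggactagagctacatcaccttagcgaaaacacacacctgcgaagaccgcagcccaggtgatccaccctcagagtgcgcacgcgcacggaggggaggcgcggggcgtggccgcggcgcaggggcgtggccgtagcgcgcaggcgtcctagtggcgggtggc
Ezh2 held 1 match, from position 3 to 10, and Dnmt1 held 2, one on the opposite strand from -219 to -212 and one from 33 to 40. The Ezh1 window held none, and neither did those of Eed, Bmi1, Rnf2, Dnmt3a, Dnmt3b and Kmt2a or the other 2 starts of Dnmt1. In all, 2 of 13 windows from 9 member genes held the motif, against 2.26% of 32851 windows of this length. By gene, 2 of the 8 measured members with a window held it, against 4.32% of 6576 measured genes. A match is a run of letters and not a measured binding site.

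The member windows were also rich in CpG, the dinucleotide that DNA methyltransferases modify. All but 1 of the 13 windows, namely 12, held more CpG than the median window of all genes, which held 7. Each form of the E2F motif contains a CpG, and windows of like CpG content were not compared for it. The counts were 31 in Ezh2, 23 in Ezh1, 23 in Bmi1, 30 in Rnf2, 17 in Eed, 30 in Dnmt3b and 36 in Kmt2a. Dnmt1 was uneven, with 2, 12 and 33 CpG at its 3 starts, and Dnmt3a had 46, 47 and 18, the first pair of windows overlapping. The CCAAT box, searched as CCAAT on both strands, occurred 3 times in the Ezh2 window, 3 times in the CpG-rich Dnmt1 window 5 times in the CpG-poor one and once in that of Eed. In all, 4 of 13 member windows held it (30.8%), against 37.4% of all windows. The E-box CACGTG, the site form of Myc and Max, occurred once in the window of Bmi1 and once at the third start of Dnmt3a, and 7.15% of all windows held it. No match to one motif overlapped a match to a different motif. In the CpG-rich Dnmt1 window, 2 CCAAT matches on opposite strands overlapped each other (-236 to -232 and -233 to -229).

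**Figure D1:**
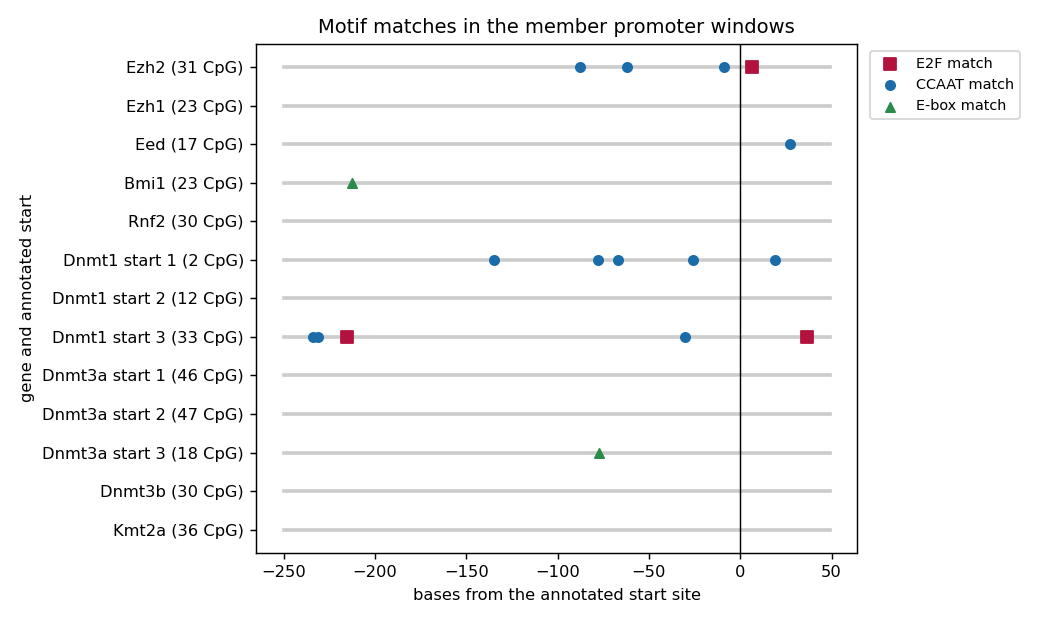
Positions of motif matches (E2F, CCAAT and E-box, on either strand) in the 13 promoter windows of 9 member genes, as bases from the annotated start, with the number of CpG in each window beside its name. E2F matches appear in the Ezh2 window and at the third Dnmt1 start, and in no other window.

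Signals are quantile-normalized intensities. A signal counted as above the control level when it exceeded the 90th percentile of 15 bacterial control probe sets, which have no mouse counterpart, 12.1 in sample 1 and 8.91 in sample 2, and signals under 20 were set to 20 before log2. Of the 9 measured members, 6 exceeded the control level in both samples by at least 1 probe set (66.7%), against 57.0% of all 8251 genes. At the level of probe sets the members had 7 of 15, against 49.3% of 12422. Both shares were close to those of all genes. The 6 were Ezh1, Ezh2, Bmi1, Cbx2, Dnmt1 and Kmt2a, and the same probe sets also had both signals above 20. Eed, Rnf2 and Dnmt3a each passed in only 1 sample.

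**Figure D2:**
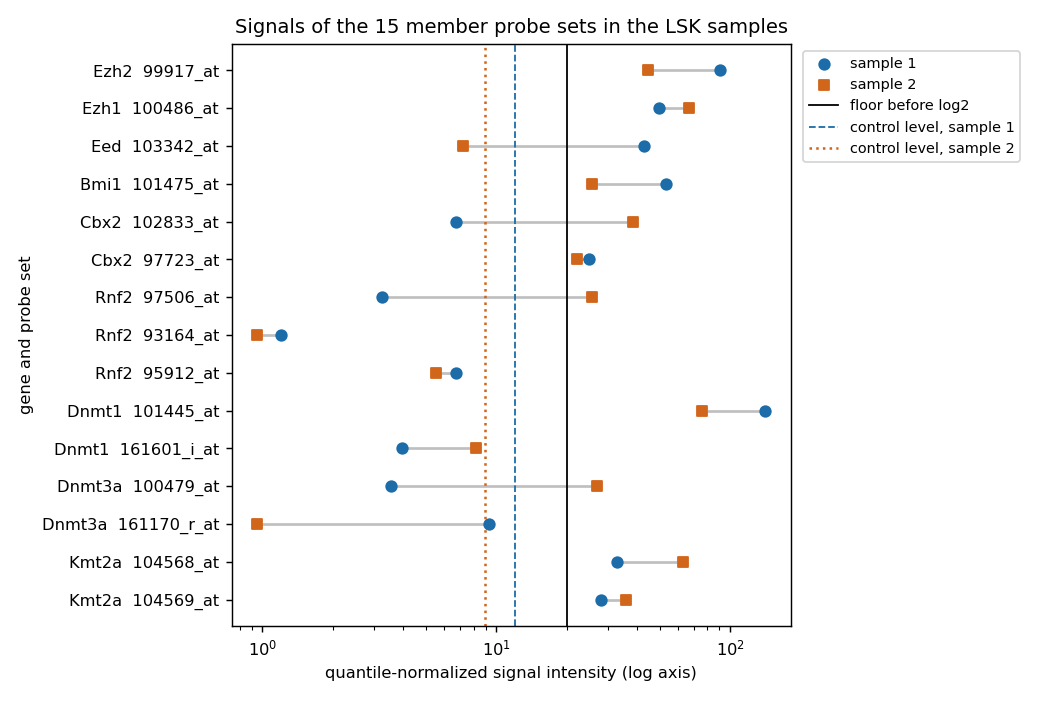
Quantile-normalized signal intensity (log axis) of each of the 15 member probe sets in sample 1 (circles) and sample 2 (squares), with the control level of each sample and the floor of 20 as vertical lines. Both signals of 7 probe sets lie to the right of the floor, 4 probe sets cross it and 4 lie to its left.

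The methyltransferase genes of PRC2 differed in opposite directions between the samples. Ezh2, the catalytic subunit that predominates in dividing cells, gave 90.4 in sample 1 against 44.6 in sample 2 (probe set 99917_at, log2 mean 5.99 ± 0.72, SD, n = 2). It was 2.03-fold higher in sample 1. Ezh1, the paralog that is also expressed in resting cells, had 49.6 and 66.4 (5.84 ± 0.30, SD, n = 2; 100486_at), 1.34-fold higher in sample 2. The difference between the samples was thus 1.44 higher for Ezh1 than for Ezh2 on the log2 scale. A common scale factor cancels in this contrast, which was 1.43 with the deposited scaling. Eed, the subunit that binds trimethylated H3K27 and stimulates the enzyme, had 42.7 in sample 1 and 7.2 in sample 2, where it was not above the control level (103342_at). It was at least 2.14-fold higher in sample 1, a bound set by the floor. Ezh2 and Eed were thus both the higher in sample 1, and Ezh1 the higher in sample 2, each by a single probe set.

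In PRC1, Bmi1 was higher in sample 1 and the other members gave low or discordant signals. Bmi1, which binds the ubiquitin ligase and represses the Cdkn2a locus, had 53.4 in sample 1 and 25.6 in sample 2 (5.21 ± 0.75, SD, n = 2; 101475_at), 2.08-fold apart. Cbx2, a chromobox reader of methylated H3K27, had 25 and 22.1 by the probe set above the control level in both samples (4.55 ± 0.13, SD, n = 2; 97723_at). Its other probe set went the other way, with 6.75 and 38.4, at least 1.92-fold higher in sample 2 (102833_at). The direction for Cbx2 therefore depended on the probe set. Rnf2, the ubiquitin ligase, had 1.2 and 0.95 by one probe set (93164_at) and 6.7 and 5.5 by another (95912_at), below the control level in both samples. The last of its probe sets had 3.25 and 25.6, at least 1.28-fold higher in sample 2 (97506_at). Rnf2 was thus measured in sample 2 alone and by 1 of its 3 probe sets.

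Among the DNA methyltransferase genes, Dnmt1 was measured in both samples and Dnmt3a in sample 2 alone. Dnmt1, the maintenance enzyme, had 141 and 75.6 in samples 1 and 2 (101445_at, 6.69 ± 0.64, SD, n = 2), 1.87-fold higher in sample 1. Its other probe set, of the type built from fewer probes than the standard number, had 3.95 and 8.2, below the control level in both samples (161601_i_at). Dnmt3a, an enzyme of new methylation and a frequent site of mutation in clonal blood disorders, had 3.55 and 27.1 by one probe set, at least 1.35-fold higher in sample 2 (100479_at). By the other, whose probes were picked under relaxed rules, it had 9.35 and 0.95, not above the control level in either sample (161170_r_at). A 3' probe set does not tell the isoforms or the starts of these genes apart.

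Kmt2a was the member measured above the control level by more than 1 probe set in both samples, and both probe sets were higher in sample 2. The first had 33.0 in sample 1 and 62.6 in sample 2 (5.51 ± 0.65, SD, n = 2; 104568_at), 1.90-fold apart. The second had 28.1 and 36.1 (4.99 ± 0.25, SD, n = 2; 104569_at), 1.28-fold apart. Their direction was the same and their sizes were not.

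Differences of the size seen in the members occurred in many other genes. Of the 6 members above the control level, 4 had the higher signal in sample 1 and 2 in sample 2, with a median difference, log2(sample 2) minus log2(sample 1), of -0.54. Over all 4707 genes above it the median was 0, with 47.1% higher in sample 1 and 43.0% higher in sample 2. The median size of the members' difference was 1.88-fold in either direction, against 1.37-fold over all genes. These sizes are not on like terms. All 6 members had both signals above the floor, as did 3337 of the 4707 genes. The floor shrinks the differences of the other genes, and 9.92% of the 4707 had a difference of 0. Bmi1 and Ezh2 were 2-fold or more higher in sample 1, as were 10.9% of those 4707 genes and 11.9% of the 3337 genes with both signals above the floor. None of the 6 members was 2-fold or more higher in sample 2, as were 9.48% and 10.7% of the genes. The replicate SD over all probe sets above the control level was 0.58 on the log2 scale, and those of Ezh2 (0.72), Bmi1 (0.75), Dnmt1 (0.64) and Kmt2a (0.65) were above it. The SD of 0.58 likewise includes probe sets with signals set to the floor. With 2 samples of 1 group no test is possible, and no p-value is given for any gene. The Ezh2 difference lay next to the 2-fold threshold, and with median-centring it was 1.96-fold. The median of the members depended on which probe sets were used. It was -0.036 where all probe sets of a gene were averaged, and 0.36 over all 9 measured members without a filter on low signals, where Cbx2 changed direction.

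**Figure D3:**
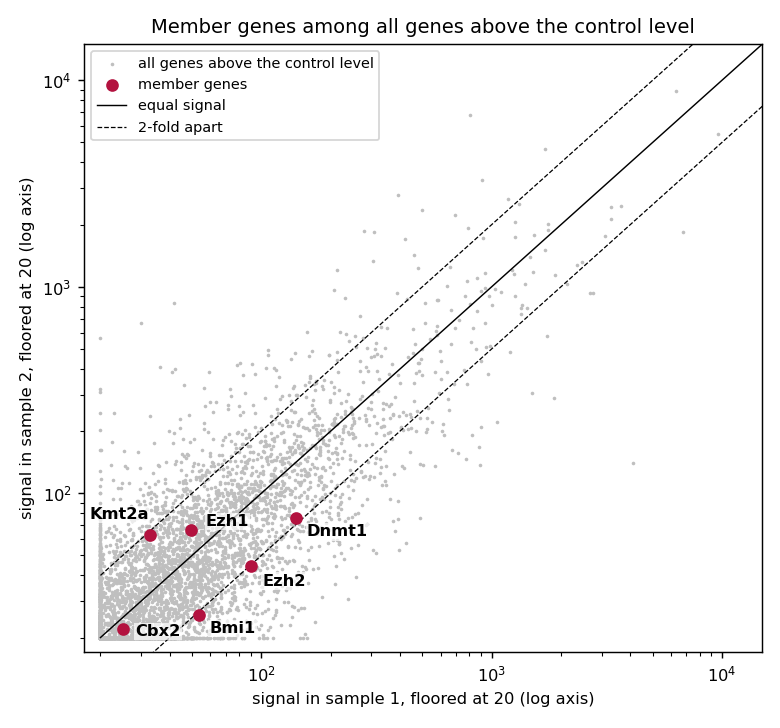
Signal in sample 1 against signal in sample 2, both floored at 20 and on log axes, for 4707 genes above the control level (grey, 1 probe set per gene) and the 6 member genes among them (red), with lines at equal signal and at 2-fold apart. Bmi1 and Ezh2 lie just past the 2-fold line toward sample 1, Dnmt1 lies inside it, and Kmt2a and Ezh1 lie on the side of sample 2.

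**Figure D4:**
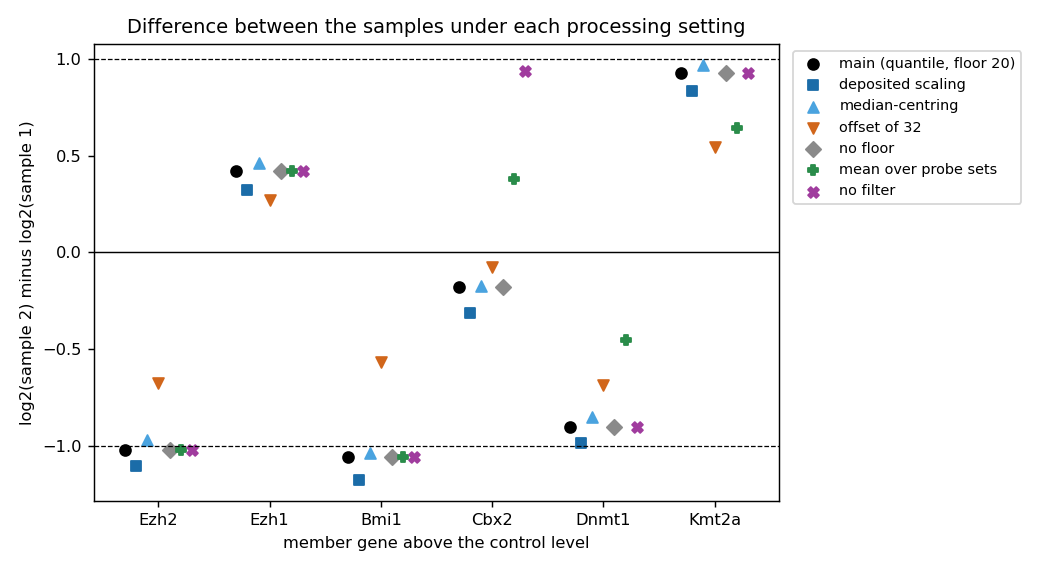
Difference between the samples, log2(sample 2) minus log2(sample 1), for the 6 members above the control level under each processing setting (1 symbol per setting), with dashed lines at 2-fold apart. Ezh2, Bmi1 and Dnmt1 stay below 0 and Ezh1 and Kmt2a above 0 in every setting, while Cbx2 lies on both sides.

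At the control level used, most other PRC2 genes passed in both samples and most other PRC1 genes did not. Of 9 PRC2 partners on the array 8 were above the control level in both, and of 8 PRC1 partners 2 were, against 57.0% of all genes. The PRC2 partners had no common direction, with 3 higher in sample 1, 5 higher in sample 2 and a median difference of 0.17. The histone-binding gene Rbbp7 was at 442 in sample 1 and 159 in sample 2, a 2.79-fold difference, and its relative Rbbp4 had 158 and 95.1. Jarid2, which recruits PRC2 to its targets, went the other way with 173 and 349. Suz12, the core subunit that joins the enzyme to Rbbp4, had 63.7 and 47.6 by its strongest probe set, 14.8 and 15.1 by another and 0.6 and 2.05 by the last. Of the PRC1 partners, the chromobox gene Cbx6 had 272 and 297, and 25.1 and 44.8 by another probe set. Pcgf2, a relative of Bmi1, had 23.2 and 21.6 by one probe set and 13.0 and 20.8 by another. The other 6 PRC1 genes, Cbx7, Pcgf5, Phc1, Phc2, Ring1 and Scmh1, each failed in at least 1 sample, and Phc1 had 27.6 and 6.7. When only sample 2 was considered, 6 of the 8 PRC1 partners passed, against 71.0% of all genes. With the median of the bacterial controls as the level 7 passed in both samples, against 85.4% of all genes. All 9 PRC2 partners passed in each of these settings. The contrast between the complexes therefore depended on the cutoff at low signals.

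Genes of a list of MLL and Trithorax genes that passed in both samples were higher in sample 2, as Kmt2a was, or at the floor. The list holds relatives of Kmt2a as well as partners. Of 11 genes of the MLL and Trithorax list on the array 6 passed in both samples (54.5%, against 57.0% of all genes). Of the 6, 4 had the higher signal in sample 2 and 2 lay at the floor. Ash2l, a core subunit of the H3K4 methyltransferase complexes, did not pass in sample 2 and went the other way, with 34.8 and 5.5. Their median difference was 0.71, and it was 0 over all 11 without a filter on low signals. Mllt3, a fusion partner of Kmt2a in leukaemia and part of the elongation machinery, had 157 and 604, 3.84-fold apart. Kmt2e, a relative of Kmt2a, had 84.9 and 306, 3.60-fold apart. Dpy30, a shared subunit of the H3K4 methyltransferase complexes, had 98.4 and 110. Of the Polycomb deubiquitinase list all 4 measured genes were above the control level, and 3 were higher in sample 2 with 1 at the floor. Asxl1, the cofactor of the deubiquitinase, had 42.9 and 73.4, and its other probe set 5.15 and 24.9. The associated genes Foxk2 and Hcfc1 had 31.1 and 48.3, and 63.9 and 94.9. Second probe sets of Foxk2 and Hcfc1 were below the control level in both samples, at 6.75 and 1.95 and at 4.4 and 3.4.

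The partners and readers of DNA methylation were above the control level in 5 of 9 cases (55.6%), against 57.0% of all genes. Uhrf1, which brings Dnmt1 to newly replicated DNA, had 36.2 in sample 1 and 12.7 in sample 2, at least 1.81-fold higher in sample 1. The methyl-CpG binding domain genes Mbd3 and Mbd1 had 49.2 and 66.2, and 15.9 and 23.6. Dmap1, Hells, Mbd2 and the demethylase gene Tet1 were not above it in both samples. Uhrf1 and Dnmt1 were thus both higher in sample 1, and Mbd1 and Mbd3 were higher in sample 2. Mbd2 had 14.9 and 8.8, under the floor in both samples and above the control level in sample 1 only.

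Genes of other repressive chromatin complexes gave no common direction. Of 8 heterochromatin genes on the array 5 passed in both samples (62.5%, against 57.0% of all genes), and their median difference was -0.17. The corepressor gene Trim28 had 292 and 258, the H3K9 methyltransferase gene Ehmt2 54.2 and 36.8, the heterochromatin protein gene Cbx5 54.2 and 36.4, and the histone chaperone gene Daxx 27.1 and 44.7. Of 10 genes of histone deacetylase complexes 9 passed in both samples (90%, against the same 57.0%), and their median difference was 0.0034. Sin3a had 99.3 and 114 and Hdac1 64.0 and 42.5. Chd4 had 802 and 6778, by a probe set whose suffix (_f_at) marks a family of similar sequences, so its signal is uncertain.

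Genes known as targets of Polycomb and of Kmt2a were above the control level in 4 of 11 cases (36.4%), against 57.0% of all genes. The count was 7 by sample 2 alone, with its lower control level, against 71.0% of all genes. It was 10 with the median of the bacterial controls as the level, against 85.4% of all genes. Cdkn2a and Cdkn2b, cell cycle inhibitor genes that Bmi1 represses, had 10.2 and 6.6, and 5.85 and 2.7, not above the control level in either sample. Hoxa9, a homeobox gene kept active by Kmt2a, had 4.7 in sample 1 and 16 in sample 2, above the control level in sample 2 only. Meis1, the cofactor of Hoxa9, had 18.6 and 40.3, at least 2.01-fold higher in sample 2. Hoxa7 had 19.7 and 32.6, and Pbx3 46.6 and 53.4, with weaker signals by its other probe sets (17.1 and 18.6, and 13.7 and 10.4). All 4 genes above the control level were higher in sample 2, Cdkn1c by only 1.12-fold. Their median difference was 0.45, and it was 0 over all 11 without a filter on low signals.

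Genes of DNA replication and the cell cycle were mostly higher in sample 1, and Ezh2 and Dnmt1 are known to be expressed with them in dividing cells. Of 25 genes on the array 22 passed in both samples (88%, against 57.0% of all genes). The higher signal was that of sample 1 for 17 and of sample 2 for 4, 1 gene lay at the floor, and the median difference was -0.74. The replication clamp gene Pcna had 403 and 208, the mitotic gene Cdc20 315 and 148, and the helicase gene Mcm7 153 and 27.7. The cyclin gene Ccnb2 went the other way, with 145 and 214. The summed signal of the 22 was 2589 in sample 1 and 1643 in sample 2. The part of this difference in the signals of Ezh2, Dnmt1, Eed and Bmi1 was not tested. Of the listed genes with a promoter window, 7 of 22 held the E2F motif of Ezh2 and Dnmt1. The 6 of these above the control level (Cdc6, Cdk1, Mcm3, Mcm5, Mcm7 and Pola1) were all higher in sample 1, with a median difference of -1.12. The 13 listed genes above the control level whose window held no match had a median of -0.30, also toward sample 1. Over all measured genes with a window the motif was held by 284 of 6576. Of these, 200 were above the control level, with the higher signal in sample 1 for 102 and in sample 2 for 82, and the median difference was -0.057. Whether the motif has a part in the direction of any of these genes was not tested.

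**Figure D5:**
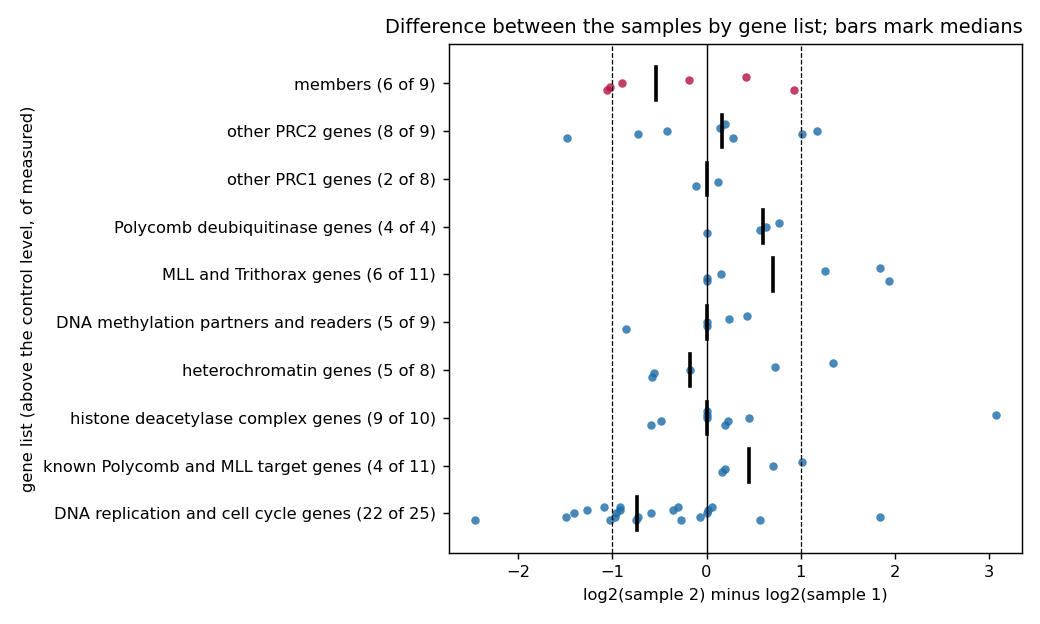
Difference between the samples, log2(sample 2) minus log2(sample 1), for each gene above the control level (points) in the members (red) and 9 related gene lists (blue), with the median of each list as a black bar and dashed lines at 2-fold apart. The replication and cell cycle list has its median at -0.74 and the MLL and Trithorax list at 0.71, on either side of the members.

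Markers of the sorted population and of the other cells it could hold were counted in the same way. Of 13 stem and early progenitor markers on the array 11 passed in both samples (84.6%, against 57.0% of all genes). Of the 11, 4 had the higher signal in sample 1 and 6 in sample 2, and the median difference of the 11 was 0.18. Their signals summed to 1683 and 3190, but to 987 and 966 without Lyl1, a transcription factor gene of blood progenitors, which had 695 and 2224. Flt3, a cytokine receptor gene, had 137 and 322, while Myb, a transcription factor gene of progenitors, had 490 and 232. Kit itself had 25.8 and 19.4.

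Of 11 lineage antigens 3 passed in both samples (27.3%, against 57.0% of all genes), with summed signals of 75.1 and 83.9. These were the B cell genes Ms4a1, at 28.2 and 43.5, and Cd79a, at 32.8 and 31.2, and the granulocyte gene Ly6g, at 14.1 and 9.25. The 8 that did not pass were Cd3d, Cd3e, Cd3g, Cd4, Cd5, Cd8a and Cd8b1 of T cells and Itgam of myeloid cells. By sample 2 alone the count was 5, against 71.0% of all genes. With the median of the bacterial controls as the level it was 7, against 85.4% of all genes.

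Of 9 stromal and endothelial markers 7 passed (77.8%, against 57.0% of all genes), with summed signals of 370 and 315. The collagen genes Col1a2 and Col1a1 had 174 and 192, and 55.8 and 43.4, but the other probe set of each gave less, 3.85 and 3.45, and 1.4 and 12.9. Pecam1, a gene of endothelial and some blood cells, had 49.4 and 24.3, 2.04-fold higher in sample 1, and the matrix gene Dcn had 33.95 and 13.4. Kdr (14.75 and 12.1) and Cxcl12 (19.6 and 12.5) also passed, but lay under the floor of 20 in both samples. Vcam1 passed at 22.25 and 17.5, while Cdh5 and Col3a1 did not pass. The other probe sets of Vcam1 and Cxcl12 did not pass in both samples. Where every probe set of a gene had to pass, 3 of the 9 stromal and endothelial markers did. So did 6 of the 13 stem markers and 44.9% of all genes. The part of these other cells in the members' signals was not tested. In samples of sorted cells, fewer cells of a type and less RNA per cell cannot be told apart.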

How the data were processed

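RNA of 2 LSK samples was measured on an Affymetrix mouse expression array. The deposited values are linear signal intensities, 1 for each probe set in each sample, and average 53.9 in both. How the authors summarised and scaled them from the scans is not stated in the labels, and detection calls were not used. An array's precision is limited by the number of samples, here 2.

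The 2 columns (12488 probe sets) were quantile-normalized, since their 2% trimmed means were 32.8 and 30.9. Signals under 20 were set to 20 before log2, which applied to 57.9% of the values, and a fold against such a signal is a lower bound written "at least". The 66 control probe sets were left out. Gene names came from the platform annotation, and 10833 probe sets name 1 gene. A gene's difference was taken from the strongest (by mean log2 signal) of its probe sets that passed the control level in both samples. Gene lists and motifs were chosen with earlier results of these data known. The genes named are all members, Kit and, of each other list, the 3 with the highest signal and the 1 with the largest difference with both signals above the floor. Suz12, Hoxa9, Cdkn1c, Cdkn2a, Cdkn2b, Dcn, Ash2l, Phc1, Mbd2, Kdr, Vcam1 and Cxcl12 were named after their values were seen. So were genes holding a motif and those given only as passing or not passing the control level. Alternatives were the deposited and median-centred scaling, an offset of 32, no floor, the mean over probe sets, no filter, 2 other control levels, all probe sets of a gene and each sample alone. Python 3.11.15, numpy 2.4.6 and pandas 2.3.3 were used. The normalization and the recovery of set changes in strong signals were tested on simulated data. The control level, the choice of probe sets and the motif search were not.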

Additional observations from a re-analysis of the deposited data

How the results depend on the processing

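The count of members above the control level was 6 with the deposited scaling, with median-centring, with the highest bacterial control as the level, and where both signals had to be above the floor (a setting chosen after seeing the data). It was 9 with the median bacterial control, 4 where every probe set had to pass, 8 in sample 2 alone and 7 in sample 1 alone. The shares of all genes in these settings were 85.4%, 44.9%, 71.0% and 64.3%, in the same order. The share was 57.0% with either other scaling, 53.0% with the highest bacterial control and 40.6% where both signals had to be above the floor. The median difference of the members was -0.65 with the deposited scaling, -0.51 with median-centring and -0.32 with an offset of 32, but 0.36 with no filter, where the 3 members not above the control level and the other probe set of Cbx2 enter. The count of members 2-fold or more apart was 1 with median-centring and 0 with an offset of 32, which shrinks differences of weak signals, and 3 with no filter. Of 36 single-member differences under an alternative, 34 kept their direction, and both exceptions were those of Cbx2. Many of the 36 could not change direction, so this count is no measure of stability. Without a floor all 6 members kept the same value, and an offset cannot change a direction. Bmi1, Ezh1 and Ezh2 have 1 probe set each, so the settings on probe sets left them as they were. Of 84 counts of other lists above the control level under an alternative, 13 moved by over 1.5 times. The deposited scaling turned the median of the other PRC1 genes to -0.10. No paired analysis was possible because the samples form 1 group. Rnf2, Dnmt3a and Cbx2 each had some signals below the control level, and detection calls were not used to check their weak signals. By 1 of its probe sets, Cbx2 still passed with the highest bacterial control as the level.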
